A study of Mus musculus with 6 samples.

Results

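The myostatin and activin axis was followed through 10 genes, all of which are present among the 54532 genes of the deposited count table and all of which passed the filter on low counts. They are the ligand genes Mstn, Gdf11, Inhba and Inhbb, the antagonist genes Fst and Fstl3, the receptor genes Acvr2a, Acvr2b and Acvr1b, and the inhibitory Smad gene Smad7. The members were named by symbol, with earlier results of these data known.

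RNA was sequenced from gastrocnemius, a mixed but mainly fast calf muscle, of C57BL/6J mice aged 3 months. Every mouse carried Mck cre, in which the muscle creatine kinase promoter drives Cre in muscle fibres, and received 0.2% doxycycline in drinking water from the age of 4 weeks. The 3 control libraries carried Mck cre alone, and 3 further libraries also carried Tg Glut1-Hk2-Pfkfb3. Whether each library came from a separate animal is not stated, so each p-value covers only the spread among these libraries, which may be technical.

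Ligands of this branch of the TGF-beta superfamily restrain muscle size. A ligand dimer binds a type II receptor, which recruits and phosphorylates a type I receptor, and that kinase phosphorylates Smad2 and Smad3. Follistatins hold the ligands outside the cell, while Smad7 blocks the type I receptor from inside and is itself a target of the pathway. In muscle, myostatin is made by the fibres themselves, and its loss in animals gives enlarged muscles.

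The libraries held 19546456 to 24665024 counts. None of Slc2a1, Hk2 and Pfkfb3, the mouse genes named in the transgene, passed edgeR's quasi-likelihood test. Pfkfb3 averaged 1087 ± 503 CPM (read counts scaled to a common library size) in controls and 379.5 ± 227 CPM in the other group (SD, n = 3 each), a direction opposite to the label. Its groups did not overlap, at 579 to 1585 CPM in controls and 120 to 542 CPM in the other group (edgeR adjusted p = 0.196). Groups did not overlap in 27.4% of all genes tested. Slc2a1, the gene of Glut1, averaged 16.04 ± 6.30 and 10.4 ± 2.79 CPM, also opposite to the label, with overlapping groups. Hk2 averaged 169 ± 16.1 and 230 ± 96.1 CPM, in the direction of the label, with 341 CPM in transgenic replicate 1 and 168 and 182 CPM in the other transgenic-labelled libraries, against 156 to 187 CPM in the controls. Groups are named as labelled, and every direction below compares the transgenic-labelled with the control-labelled libraries. The tissue label was met by its markers, since 6 muscle fibre genes (Acta1, Ckm, Myh4, Tnnt3, Atp2a1 and Pvalb) summed to between 99014 and 163220 CPM in all libraries. Control replicate 1 differed most from the rest: across genes, its log2 CPM correlated at 0.955 to 0.966 with the other 5 libraries, which correlated at 0.968 to 0.992 with each other. In that library 6 B cell markers summed to 477 CPM, against 6.90 to 56.5 CPM elsewhere, and 7 T and NK cell markers to 90.4 CPM, against 0.520 to 4.36 CPM. Its 5 neutrophil markers summed to 11.2 CPM, against 1.32 to 5.24 CPM elsewhere. Its 4 adipocyte markers summed to 212 CPM, against 46.8 to 211 CPM elsewhere. Its 6 muscle fibre genes summed to 108681 CPM, or 69.3% of the mean of the other controls. Test results of the genes below are therefore given with and without control replicate 1, while the order of levels, the FPKM ratios and the likeness to Mstn use all 6 libraries.

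The upstream sequence of Mstn and Acvr1b is shown because these 2 members passed edgeR's test without control replicate 1. Neither passed it with all 6 libraries. Each window holds the 250 bases before the RefSeq start on GRCm38.p6, written 5′ to 3′ on the gene's strand, here the plus strand for each gene. Capitals mark matches on either strand to TATAAA, to the E-box CANNTG, which muscle regulatory factors bind, and to CAGAC, a motif that Smads bind. None of the matches overlap one another.
Mstn, chr1:53061390-53061639: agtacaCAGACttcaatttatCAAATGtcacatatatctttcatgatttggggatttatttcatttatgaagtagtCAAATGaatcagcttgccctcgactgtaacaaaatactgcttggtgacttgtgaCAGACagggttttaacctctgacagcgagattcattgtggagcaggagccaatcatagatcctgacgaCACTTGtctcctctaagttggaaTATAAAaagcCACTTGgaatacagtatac
Acvr1b, chr15:101173822-101174071: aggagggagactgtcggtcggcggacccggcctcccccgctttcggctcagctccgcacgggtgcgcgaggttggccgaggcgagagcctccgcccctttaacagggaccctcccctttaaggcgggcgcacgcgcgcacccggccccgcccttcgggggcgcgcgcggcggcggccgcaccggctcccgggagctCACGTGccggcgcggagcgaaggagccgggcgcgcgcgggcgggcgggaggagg

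The Mstn window held 4 E-box matches, 2 CAGAC motifs and 1 TATAAA, whose first base lies at position -29 from the start. The Acvr1b window held a single E-box match, CACGTG, and neither of the other motifs. G and C made up 38.4% of the Mstn window and 78.8% of the Acvr1b window, against a median of 52.4% over 32851 RefSeq windows of the same length. Among those windows 66.2% held CANNTG, 42.2% held CAGAC and 12.4% held TATAAA on either strand. These matches describe the letters and do not show that a factor binds.

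Mstn, the gene of myostatin, showed the largest difference of the 10 genes and was lower in every transgenic-labelled library. It lies on GRCm38 chromosome 1, 53061640 to 53068079 on the plus strand (ENSMUSG00000026100), and no other annotated gene overlaps it. Control replicates 1, 2 and 3 held 865, 4258 and 4387 counts, or 36.1, 201 and 202 CPM. The 3 transgenic-labelled libraries held 384, 446 and 624 counts, or 15.9, 21.6 and 24.99 CPM. The groups did not overlap, but control replicate 1 lay far closer to the transgenic-labelled libraries than to the other controls, at 17.9% of their mean. Group means were 146.5 ± 95.6 and 20.8 ± 4.61 CPM (SD, n = 3 each), 7.03-fold lower in the transgenic-labelled libraries.

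The log2 fold change of Mstn was -2.81 ± 0.59 (SE, 95% interval -4.20 to -1.43), with an unadjusted p of 0.00170 and an edgeR quasi-likelihood adjusted p of 0.0721. With all 6 libraries it therefore missed the threshold of 0.05. A two-sided exact permutation test gave p = 0.1, which is the lowest value possible with 3 libraries per group. Without control replicate 1 the log2 fold change was -3.28 ± 0.18 (95% interval -3.71 to -2.85), a 9.68-fold lower level, and Mstn passed with an edgeR adjusted p of 0.00115. DESeq2 also called it with all libraries, at an adjusted p of 0.00357. Over the 14 alternatives run, the direction held in 14, the adjusted p ranged from 0.00115 to 0.229, and the call was made in these 2. The lymphocyte and fibre marker sums of control replicate 1, given above, moved with its low Mstn value, and their part in it was not tested. In bulk RNA, fewer cells of a type and less RNA per cell cannot be told apart.

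**Figure D1:**
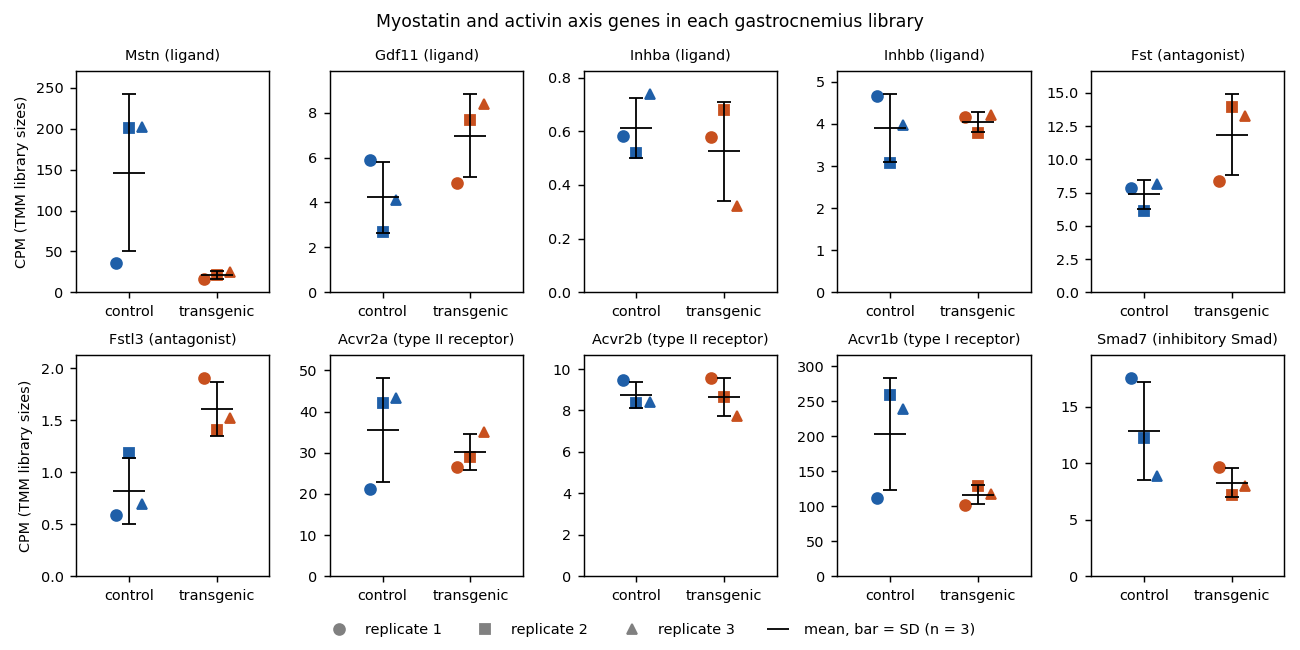
CPM of each of the 10 genes (y axis, from 0) in the 3 control (blue) and 3 transgenic (orange) libraries, with a symbol per replicate number and black bars for the mean and SD. Mstn lies at 201 and 202 CPM in control replicates 2 and 3, at 36.1 CPM in control replicate 1 and at 15.9 to 24.99 CPM in the transgenic-labelled libraries.

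Gdf11 encodes the close paralogue of myostatin. It had 5.88, 2.69 and 4.10 CPM in control replicates 1, 2 and 3, and 4.88, 7.66 and 8.37 CPM in the transgenic-labelled libraries. The groups overlapped through control replicate 1 and transgenic replicate 1. Its log2 fold change was 0.71 ± 0.33 (95% interval -0.05 to 1.48, edgeR adjusted p = 0.264). Leaving out control replicate 1 gave 1.03 ± 0.30 and an edgeR adjusted p of 0.0618, which also missed the threshold. Gdf11 (ENSMUSG00000025352) lies on chromosome 10, 128882295 to 128891718, on the minus strand.

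The ratio of Mstn to Gdf11 was compared per gene length, on the deposited FPKM values (fragments per kilobase of gene, scaled for depth). Mstn stood 9.21, 112 and 74.0 times above Gdf11 in control replicates 1, 2 and 3, and 4.89, 4.24 and 4.48 times above it in the transgenic-labelled libraries. Mstn supplied 83.5%, 98.1% and 97.3% of the FPKM of the 4 ligand genes in the controls, and 72.1%, 73.5% and 74.9% in the transgenic-labelled libraries. Mstn thus remained the most abundant of these 4 ligand RNAs in every library. Tgfb3, a ligand gene outside the members, stood above it in the transgenic-labelled libraries, at 11.8, 11.5 and 11.6 FPKM. Mstn had 5.81, 7.99 and 9.29 FPKM there. In control replicates 1, 2 and 3 Tgfb3 lay below Mstn, at 9.17, 9.85 and 9.63 FPKM. These ratios and levels are a description and were not tested.

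The activin subunit genes Inhba and Inhbb were low and showed no difference past the threshold. Inhba encodes the beta A chain, whose dimer is activin A, and Inhbb the beta B chain of activin B. Inhba held 14, 11 and 16 counts in the controls and 14, 14 and 8 in the transgenic-labelled libraries, or 0.320 to 0.737 CPM over all 6. At that depth its log2 fold change of -0.24 had a 95% interval from -1.15 to 0.67 (edgeR adjusted p = 0.757), so a difference of 2-fold was not excluded in the lower direction. Inhbb had 4.67, 3.07 and 3.96 CPM in the controls and 4.17, 3.78 and 4.21 CPM in the transgenic-labelled libraries. Its transgenic values lay inside the control range, and its log2 fold change was 0.05 ± 0.22 (95% interval -0.46 to 0.56, edgeR adjusted p = 0.919). With control replicate 1 left out, Inhba and Inhbb had log2 fold changes of -0.28 and 0.20 (edgeR adjusted p-values 0.691 and 0.511). Inhba (ENSMUSG00000041324) lies on chromosome 13, 16011851 to 16031621, on the plus strand, and Inhbb (ENSMUSG00000037035) on chromosome 1, 119415465 to 119422248, on the minus strand. Per gene length Inhbb lay 8.07 to 19.7 times above Inhba in the 6 libraries.

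Both antagonist genes had higher means in the transgenic-labelled libraries, with no overlap between groups, but neither passed the test. Groups did not overlap, in either direction, in 27.4% of all genes tested. Fst encodes follistatin, which binds activins and myostatin almost irreversibly. It had 7.84, 6.14 and 8.16 CPM in the controls and 8.39, 13.9 and 13.3 CPM in the transgenic-labelled libraries. Transgenic replicate 1 lay just above the highest control, while the other transgenic-labelled libraries were clearly higher. The log2 fold change was 0.68 ± 0.23 (95% interval 0.14 to 1.23), with an unadjusted p of 0.0204 and an edgeR adjusted p of 0.169. Fst (ENSMUSG00000021765) lies on chromosome 13, 114452290 to 114458951, on the minus strand, and shares 115 exonic bases with the antisense gene Gm47040, which held at most 1 count per library.

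Fstl3 encodes a related secreted glycoprotein that also binds activins and myostatin. It held 14, 25 and 15 counts in the controls and 46, 29 and 38 in the transgenic-labelled libraries, or 0.584, 1.18 and 0.691 CPM against 1.90, 1.41 and 1.52 CPM. The highest control and the lowest transgenic-labelled library lay close together. Its log2 fold change was 0.99 ± 0.34 (95% interval 0.20 to 1.78), with an unadjusted p of 0.0209 and an edgeR adjusted p of 0.170. In the fit without control replicate 1, Fst and Fstl3 stood at 0.73 ± 0.26 and 0.79 ± 0.34 on the log2 scale, with edgeR adjusted p-values of 0.0931 and 0.149. Two-sided exact permutation p-values for Fst and Fstl3 were 0.1 each. Fstl3 (ENSMUSG00000020325), on chromosome 10, 79777272 to 79782630, plus strand, shares 1157 of its 2445 exonic bases with Prss57 on the opposite strand, and whether the counting used strand is not given in the sources used here; its value is uncertain. Prss57 itself held 0 to 3 counts per library.

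Marker sums of several other cell types were higher on average in the transgenic-labelled libraries. The 6 markers of fibro-adipogenic progenitors, the connective tissue cells of muscle, summed to 426 to 637 CPM in the controls and 734 to 821 CPM in the transgenic-labelled libraries, with a positive log2 fold change in 5 of the 6. Dcn, a member of this list, is also among the binding proteins described below. The 5 markers of smooth muscle and pericytes summed to 268 to 322 and 337 to 527 CPM, with a positive log2 fold change in 4 of the 5. Those sums did not overlap between groups, and of both lists 0 markers passed edgeR's test with all libraries. Without control replicate 1 Pdgfra, Lum, Notch3 and Pdgfrb passed, in a fit where 13.1% of all genes did. The 5 markers of satellite cells, the stem cells of muscle, summed to 24.8 to 29.5 and 27.1 to 40.01 CPM, with a positive log2 fold change in 5 of the 5. Of all cell type markers tested, Calcr, the calcitonin receptor gene, alone passed with all libraries. Calcr held 9, 7 and 9 counts in the controls and 34, 37 and 42 in the transgenic-labelled libraries. These equal 0.375, 0.331 and 0.415 CPM and 1.40, 1.79 and 1.68 CPM. Its log2 fold change was 2.10 ± 0.31 (edgeR adjusted p = 0.0324, and 0.0183 without control replicate 1). Myf5, a myogenic regulatory factor, stood at 1.26 ± 0.23 (edgeR adjusted p = 0.0518, and 0.0271 without that library). Pax7, Chrdl2 and Cdh15, the other satellite cell markers, passed in neither fit. Cdh15, the most abundant of the list at 19.5 to 28.7 CPM, had a log2 fold change of 0.09, and -0.02 without control replicate 1. The 5 endothelial markers summed to 209.8 to 293 and 274 to 572 CPM and the 5 macrophage markers to 39.7 to 86.8 and 79.5 to 108 CPM, each with positive log2 fold changes in 5 of the 5, overlapping sums and 0 passing with all libraries. Mrc1, a macrophage marker, passed without control replicate 1. So did Plin1 of the adipocyte list and Cd4 of the T and NK cell list, which had 1 count in each of control replicates 2 and 3. Not all lists rose. The 6 muscle fibre genes summed to 108681 to 163220 CPM in the controls and 99014 to 137474 CPM in the transgenic-labelled libraries. Their log2 fold change was positive in 0 of the 6. The 5 Schwann cell markers summed to 216 to 358 and 206 to 344 CPM, with a positive log2 fold change in 2 of the 5. Both sums overlapped between groups, and 0 of these markers passed with all libraries. Apart from the T and NK cell list, all markers of the lists in this paragraph had counts in every library. The part of these cell types in the levels of the members and of the other genes below was not tested.

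Acvr1b encodes the type I receptor ALK4, a kinase through which activins and myostatin reach Smad2 and Smad3. Control replicates 1, 2 and 3 had 112, 259 and 239 CPM, and the transgenic-labelled libraries had 102, 130 and 118 CPM. Control replicate 1 fell inside the transgenic range, so the groups overlapped, while the other controls stood well above it. The log2 fold change was -0.80 ± 0.29 (95% interval -1.49 to -0.12), with an unadjusted p of 0.0272 and an edgeR adjusted p of 0.188. Without control replicate 1 it was -1.09 ± 0.13, a 2.14-fold lower level, and Acvr1b passed with an edgeR adjusted p of 0.00715. In edgeR that library decided the call, as it did for Mstn. With all libraries DESeq2 called Mstn but not Acvr1b, at DESeq2 adjusted p-values of 0.00357 and 0.0718. Acvr1b (ENSMUSG00000000532) lies on chromosome 15, 101174067 to 101213684, on the plus strand.

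The type II receptor genes Acvr2a and Acvr2b encode the receptors that bind the ligands first, ActRIIA and ActRIIB. Acvr2a had 21.1, 42.1 and 43.4 CPM in the controls and 26.5, 29.1 and 35.004 CPM in the transgenic-labelled libraries. The transgenic-labelled libraries lay between control replicate 1 and the other controls. Its log2 fold change was -0.23 ± 0.27 (95% interval -0.86 to 0.39, edgeR adjusted p = 0.651), and -0.50 ± 0.14 without control replicate 1, where the adjusted p of 0.0545 missed the threshold. Acvr2a (ENSMUSG00000052155), on chromosome 2, 48814109 to 48903269, plus strand, shares 446 of its 5686 exonic bases with Orc4 on the opposite strand, and Orc4 held 352 to 504 counts per library, so the value of Acvr2a is uncertain to that extent.

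Acvr2b, of the 10 genes, had the log2 fold change closest to 0. Its levels were 9.47, 8.36 and 8.39 CPM in the controls and 9.55, 8.63 and 7.73 CPM in the transgenic-labelled libraries. Its log2 fold change was -0.02 ± 0.16 (edgeR adjusted p = 0.961), with a 95% interval from -0.39 to 0.35. It was 0.04 ± 0.16 without control replicate 1, with an adjusted p of 0.866. Per gene length Acvr2a supplied 60.6%, 77.7% and 78.1% of the FPKM of the type II pair in control replicates 1, 2 and 3. In the libraries labelled transgenic its share was 65.7%, 70.0% and 75.8%. Control replicate 1 had the lowest share of the 6 libraries. Acvr2b (ENSMUSG00000061393) lies on chromosome 9, 119402118 to 119434995, on the plus strand.

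Smad7 had a lower mean in the transgenic-labelled libraries and did not pass. Its levels were 17.5, 12.2 and 8.85 CPM in the controls and 9.71, 7.17 and 8.01 CPM in the transgenic-labelled libraries. Control replicate 1, the library with the lymphocyte markers, was the highest, and control replicate 3 fell inside the transgenic range. Its log2 fold change was -0.63 ± 0.26 (95% interval -1.25 to -0.02), with an unadjusted p of 0.0447 and an edgeR adjusted p of 0.231. Without control replicate 1 it was -0.34 ± 0.20 and the adjusted p was 0.269, so this gene moved towards 0 where Mstn and Acvr1b moved away from it.

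**Figure D2:**
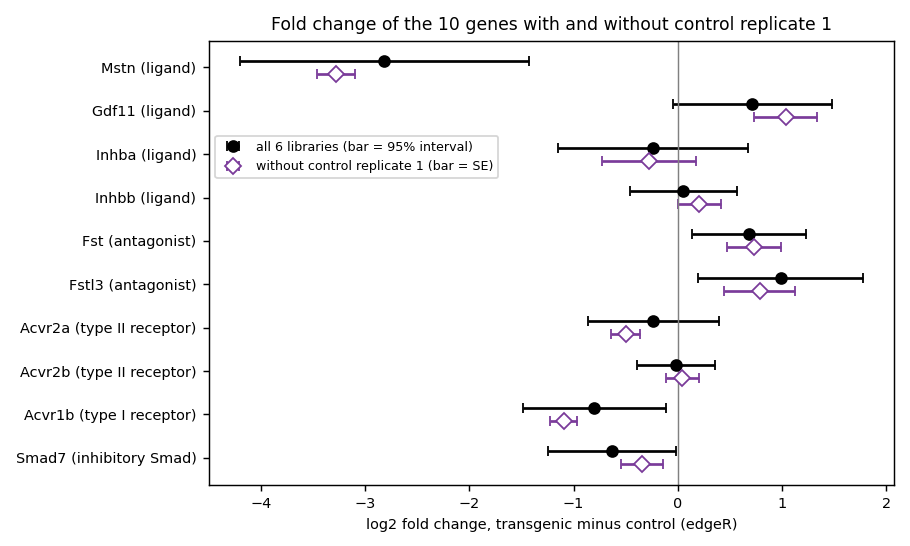
Log2 fold change of each gene, transgenic minus control, from edgeR with all 6 libraries (black, bar for the 95% interval) and without control replicate 1 (open diamonds, bar for the SE). Mstn stands at -2.81 and -3.28 and Acvr1b at -0.80 and -1.09, and the intervals of Gdf11, Inhba, Inhbb, Acvr2a and Acvr2b with all libraries include 0.

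Over the 10 genes, 0 passed an adjusted p of 0.05 with all 6 libraries, where 1.30% of the 14973 genes tested did. DESeq2 called 1 of the 10, against 1075 of the 14859 genes it tested. At an unadjusted edgeR p under 0.05 there were 5, or 50% against 20.8% of all genes. Lower were 3 of them, Mstn, Acvr1b and Smad7, where 10.3% of all genes were, and higher were 2, Fst and Fstl3, where 10.5% were. The CPM values of the groups did not overlap in 3 of the 10, or 30%, against 27.4% of all genes, a share close to the background. Without control replicate 1, edgeR called 2 of the 10, or 20%, against 13.1% of all genes, and each was lower, as were 6.99% of all genes. The median log2 fold change of the 10 was -0.13, against -0.03 over all genes.

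Levels were ordered per gene length. In the controls Mstn led with 54.1 ± 35.4 FPKM and Acvr1b followed with 45.9 ± 18.1 FPKM (SD, n = 3), and their ranges overlapped. Next came Acvr2a at 6.24 ± 2.22, Smad7 at 2.84 ± 0.951, Acvr2b at 2.22 ± 0.151 and Fst at 1.604 ± 0.235 FPKM. Acvr2a lay below the whole range of Acvr1b, overlapped with Smad7, and Smad7 overlapped with Acvr2b. Fst lay below Acvr2b without overlap and overlapped with Gdf11, at 1.04 ± 0.388 FPKM. Gdf11 in turn overlapped with Inhbb at 0.915 ± 0.185 FPKM, and Fstl3 at 0.334 ± 0.130 and Inhba at 0.0958 ± 0.0177 FPKM stood apart below.

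By group mean, the order differed at the top in the transgenic-labelled libraries. Of the controls, only replicate 1 also had Acvr1b above Mstn, at 25.1 and 13.2 FPKM. In the transgenic-labelled libraries Acvr1b led with 26.4 ± 3.24 FPKM, without overlap with Mstn at 7.70 ± 1.76 FPKM. Mstn there overlapped with Acvr2a at 5.31 ± 0.807 FPKM. Fst, at 2.59 ± 0.674 FPKM, came before Acvr2b at 2.19 ± 0.213 and Smad7 at 1.83 ± 0.273 FPKM, and each of these overlapped with its neighbour. Gdf11, at 1.72 ± 0.466 FPKM, overlapped with Smad7 and stood above Inhbb at 0.951 ± 0.0555 FPKM. Fstl3 and Inhba were again the lowest, at 0.657 ± 0.101 and 0.0821 ± 0.0286 FPKM. The FPKM of Fst was 0.128, 0.0180 and 0.0238 of that of Mstn in control replicates 1, 2 and 3, and 0.312, 0.379 and 0.314 of it in the transgenic-labelled libraries.

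**Figure D3:**
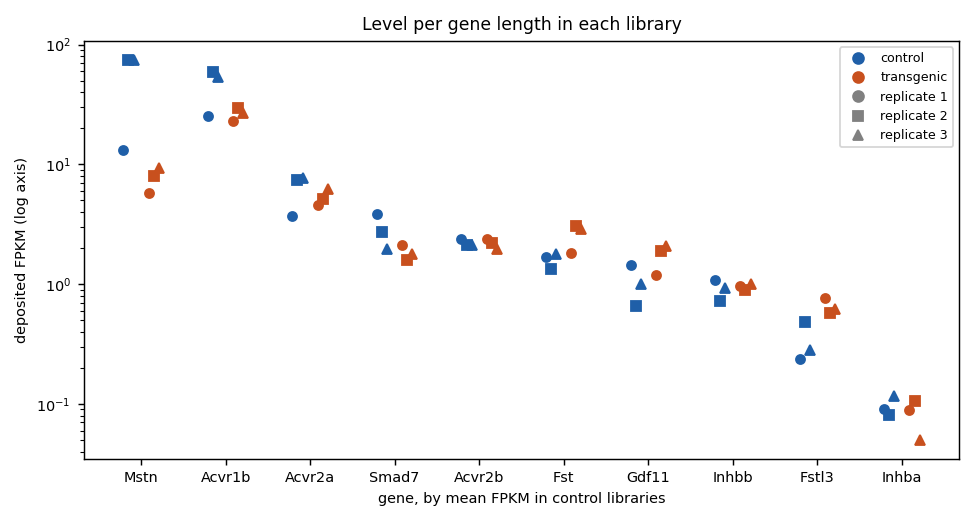
Deposited FPKM of the 10 genes (log axis) in each library, ordered by mean FPKM in the controls, with blue for control, orange for transgenic and a symbol per replicate number. Mstn and Acvr1b both lie above 20 FPKM in control replicates 2 and 3. In control replicate 1 and in the transgenic-labelled libraries Acvr1b alone does.

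The genes most like Mstn in their pattern over the 6 libraries were found among the 7763 protein-coding genes whose mean was 10 CPM or more. By Pearson correlation of log2 CPM they were Lcmt1 (r = 0.999), Ddx47 (r = 0.998) and Ube2b (r = 0.997). With 6 libraries and so many genes, values this high describe only the ranking. Their amplitude was far smaller than that of Mstn. Lcmt1, a methyltransferase gene, had means of 20.7 ± 1.67 and 17.8 ± 0.373 CPM, Ddx47, an RNA helicase gene, 50.4 ± 8.68 and 36.99 ± 1.33 CPM, and Ube2b, a ubiquitin-conjugating enzyme gene, 633 ± 112 and 440 ± 21.7 CPM (control and transgenic, SD, n = 3).

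The other genes of the pathway were taken from 9 lists with 77 genes, of which 76 were in the table and 61 passed the filter on low counts. Across these, 0 passed an adjusted p of 0.05 in edgeR. DESeq2 called 6 of the 60 it tested, against 1075 of 14859 over all genes. At an unadjusted p under 0.05 there were 16, 13 higher and 3 lower, or 26.2% against 20.8% of all genes. The CPM values of the groups did not overlap in 20 of the 61, or 32.8% against 27.4% of all genes. The log2 fold change was positive in 44 of the 61, or 72.1% against 46.6% of all genes, with a median of 0.26. That median stayed positive in the 14 alternatives, from 0.13 with limma on log2(FPKM + 1) to 0.39 with scaling by library totals. Without control replicate 1, edgeR called 12, or 19.7% against 13.1% of all genes, 7 higher and 5 lower, where 6.08% and 6.99% of all genes were. The higher ones included Bmp1, Bmper, Chrd, Ltbp2, Tgfbr2 and Tgfbr3, and the lower ones Bmpr1b, Furin, Ppm1a, Smad4 and Tgif1. These genes are named because they passed in that fit.

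Of 7 target genes of Smad2 and Smad3, 0 passed with all libraries, and log2 fold changes were positive in 4 and negative in 3. Tgif1, a repressor that binds Smad2, had 22.5, 39.4 and 31.5 CPM in the controls and 11.0, 13.9 and 16.3 CPM in the transgenic-labelled libraries. It lay lower in every transgenic-labelled library, with a log2 fold change of -1.18 ± 0.23 (edgeR adjusted p = 0.0629, and 0.0109 without control replicate 1). Ltbp2 turned with a single library, having 6.67, 0.331 and 0.369 CPM in control replicates 1, 2 and 3, and 1.32, 2.08 and 1.56 CPM in the transgenic-labelled libraries. Its log2 fold change was -0.61 with all libraries (edgeR adjusted p = 0.752) and 2.21 without control replicate 1 (adjusted p = 0.0205).

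Of 6 target genes of BMP signalling tested, 0 had an unadjusted p under 0.05 in edgeR, with or without control replicate 1, and DESeq2 called none of them. The smallest p-values were those of Id3, an inhibitor of basic helix-loop-helix factors, with a log2 fold change of -0.26 ± 0.15 (edgeR adjusted p = 0.367), and Id4, of the same family, with 0.67 ± 0.47 (adjusted p = 0.445). In the fit lacking control replicate 1 they stood at -0.16 ± 0.14 and 0.96 ± 0.53 (edgeR adjusted p = 0.451 and 0.236).

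Extracellular binding proteins other than the follistatins had positive log2 fold changes in 8 of 9, and 0 of 9 passed with all libraries. Bmper, a secreted BMP modulator, had 3.21, 2.84 and 3.41 CPM in the controls and 5.21, 6.35 and 5.97 CPM in the transgenic-labelled libraries. Chrd, the BMP antagonist chordin, had 6.34, 6.10 and 5.30 CPM in the controls, and the lowest of its transgenic-labelled libraries had 9.36 CPM. Neither gene overlapped between the groups. Their log2 fold changes were 0.89 ± 0.19 and 0.71 ± 0.16, with edgeR adjusted p-values of 0.0768 and 0.0794, and 0.0337 and 0.0271 without control replicate 1. The gene with a negative log2 fold change was Wfikkn2. It had 18.5, 19.8 and 19.2 CPM in the controls and 8.76, 17.3 and 13.9 CPM in the transgenic-labelled libraries, without overlap. Its log2 fold change was -0.53 ± 0.23 (edgeR adjusted p = 0.248, and 0.165 without control replicate 1).

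Of 11 further receptors 0 passed with all libraries, and the fold change was above 1 in 9. Tgfbr3, the co-receptor betaglycan, which also presents inhibin to type II receptors, had 44.8, 48.9 and 57.1 CPM in the controls and 84.7, 69.1 and 77.4 CPM in the transgenic-labelled libraries. Its groups did not overlap, and its log2 fold change was 0.62 ± 0.14 (edgeR adjusted p = 0.0789, and 0.0399 without control replicate 1). For Bmpr2, the BMP type II receptor, the log2 fold change was 0.58 ± 0.20 (edgeR adjusted p = 0.167), and 0.41 ± 0.16 without control replicate 1 (adjusted p = 0.110). Of 7 other Smad genes 0 had an unadjusted p under 0.05 in edgeR. Smad2, at 0.33 ± 0.15, and Smad4, the shared partner Smad, at -0.31 ± 0.14, had the smallest p-values (adjusted p = 0.250 and 0.261). With control replicate 1 left out, Smad2 stood at 0.40 ± 0.15 (edgeR adjusted p = 0.104). Smad4 passed in that fit, at a log2 fold change of -0.42 and an edgeR adjusted p of 0.0498.

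Of 9 regulators of receptors and Smads 0 passed with all libraries, with 4 positive and 5 negative log2 fold changes. Beside Tgif1, the smallest p was that of Smurf1, a ubiquitin ligase for Smads and receptors, with a log2 fold change of 0.35 ± 0.12 (edgeR adjusted p = 0.166), and 0.39 ± 0.12 without control replicate 1 (adjusted p = 0.0701).

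Of 5 proteases that cut ligand precursors 0 passed with all libraries. Bmp1, whose tolloid-type protease frees myostatin from its propeptide, had 29.7, 19.2 and 26.0 CPM in the controls and 34.7, 32.6 and 33.7 CPM in the transgenic-labelled libraries (log2 fold change 0.43 ± 0.17, edgeR adjusted p = 0.207). Furin, the convertase that makes the first cut, had 87.9, 117 and 125 CPM and 94.96, 94.8 and 92.2 CPM (-0.23 ± 0.15, adjusted p = 0.410). Bmp1 did not overlap between the groups, while control replicate 1 was the lowest of all libraries for Furin. Both passed narrowly without control replicate 1, Bmp1 at an edgeR adjusted p of 0.0475 and Furin at 0.0483.

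Of the other ligands, 4 of 10 in the activin and TGF-beta branch and 7 of 12 in the BMP branch passed the filter, and 0 of these passed the test. Tgfb3 had the smallest p of its list, with 31.2, 33.4 and 32.5 CPM in the controls and 40.2, 38.9 and 39.0 CPM in the transgenic-labelled libraries (log2 fold change 0.28 ± 0.10, edgeR adjusted p = 0.184). Tgfb2 followed at 0.36 ± 0.15 (adjusted p = 0.240). Bmp6 had 19.5, 19.3 and 21.4 CPM and 34.7, 27.8 and 27.0 CPM (0.57 ± 0.14, adjusted p = 0.0926), and Bmp4 was at 0.51 ± 0.23 (adjusted p = 0.252). Tgfb2, Tgfb3 and Bmp6 did not overlap between the groups. In the fit without control replicate 1, Tgfb3 stood at 0.26 ± 0.10 and Tgfb2 at 0.46 ± 0.14 (edgeR adjusted p = 0.121 and 0.0699), and Bmp6 at 0.55 ± 0.15 and Bmp4 at 0.48 ± 0.25 (adjusted p = 0.0515 and 0.206).

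**Figure D4:**
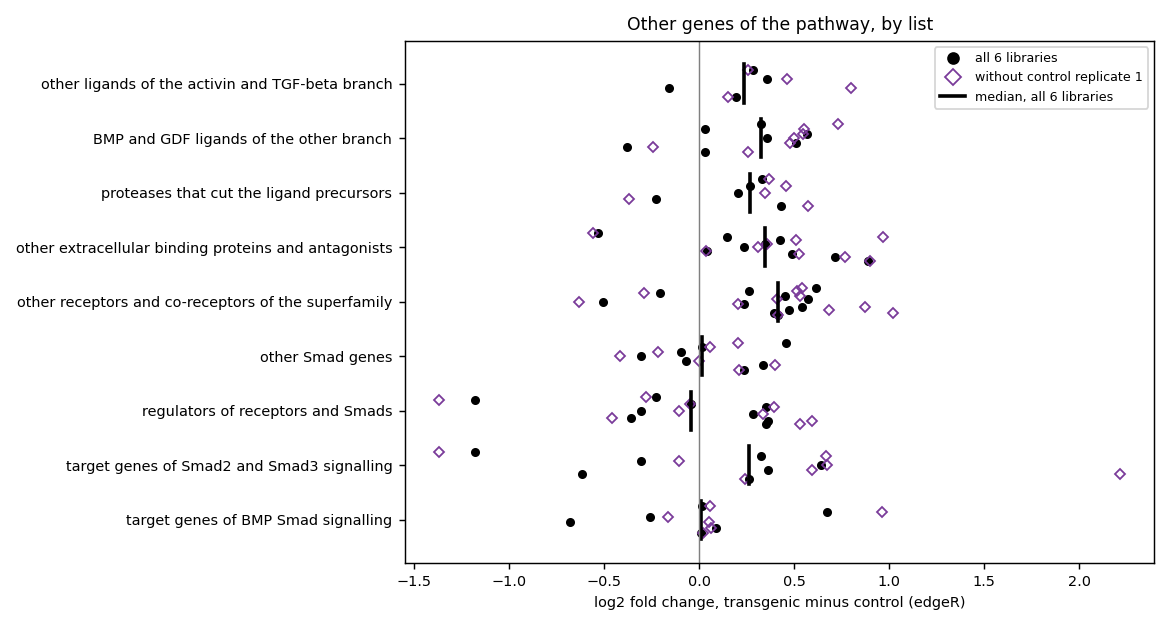
Log2 fold change of the other pathway genes, transgenic minus control, by list, from edgeR with all 6 libraries (black points, bar for the list's median) and without control replicate 1 (open diamonds). Genes in 2 lists appear in each, Tgif1 stands lowest at -1.18, and Ltbp2 moves from -0.61 to 2.21 without control replicate 1.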

How the data were processed

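Groups and replicate numbers came from the sample titles. The submitters' processing notes name HISAT2 2.0.5, featureCounts 1.5.0-p3 and GRCm38, with no order, and neither an annotation release nor a strand setting. The deposited counts are whole numbers per gene. The deposited FPKM values equal, from the values, counts over gene length and over a library size 0.878 to 1.11 times the total.

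The test was that of edgeR 4.0.16 (R 4.3.3; TMM scaling, filterByExpr, quasi-likelihood test, legacy = FALSE) over 14973 genes, with two-sided p-values adjusted by Benjamini-Hochberg at 0.05. The SE was taken from the log2 fold change and its F statistic. CPM uses TMM library sizes, and 0.5 CPM was added before logs for correlations and permutation tests. A count of 3 equals 0.120 to 0.145 CPM, for counting error only.

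All 10 members were named. Of each pathway list the 2 genes with the smallest p were named where none passed, plus the 3 genes most like Mstn. Tgif1 stands in 2 lists. The genes called without control replicate 1, the cell type markers given singly and Wfikkn2 were named after their values were seen. Members and lists were chosen with earlier results of these data known.

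Coordinates of all 10 genes match GENCODE M21. RefSeq windows matched 8 of the 10 members. On simulated counts over 15211 tested genes, edgeR recovered 0, 17, 43 and 49 of 50 genes changed 1.5, 2, 4 and 8-fold, respectively, and 10 of its 119 calls were false. The simulation set no library apart as control replicate 1 was, so these rates may not hold for the data. Alternatives used DESeq2 1.42.0, limma 3.58.1 (voom, and log2(FPKM + 1) and log2(FPKM + 0.1)), other scalings, no filter, a replicate block and fits without each library. A gene of the pathway lists is counted in the totals and its values are not reported here.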

Additional observations from a re-analysis of the deposited data

How the results depend on the processing

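Of all genes, edgeR called 194 with all 6 libraries and 0 to 1956 when each library was left out in turn, with the most in the fit lacking control replicate 1 and the fewest in that lacking control replicate 3 (2116 there at an unadjusted p under 0.05). Over the same fits the count among the 10 members was 0 to 2 and that among the other pathway genes 0 to 12, the highest being without control replicate 1. DESeq2 called 1075 genes, 1 of them a member and 6 other pathway genes. Without a filter on low counts 124 genes passed, and limma passed 112 on log2(FPKM + 1) and 121 on log2(FPKM + 0.1). Scaling by library totals called 1 other pathway gene, Tgfbr3, gave 205 genes higher and 54 lower (79.2% higher in place of 60.8%), and moved the median over all genes from -0.03 to 0.12 on the log2 scale. It turned Acvr2b to 0.12. Leaving out 1 library gave log2 fold changes from -0.082 to 0.056 for Acvr2b (positive without control replicate 1 and transgenic replicate 3), from -0.45 to 0.028 for Inhba (positive without transgenic replicate 3) and from -0.091 to 0.20 for Inhbb (negative without control replicate 2). The other 7 members kept their direction in all 14 alternatives. With the replicate block 5 genes passed, 0 of them members or other pathway genes, and the log2 fold change of Mstn was -2.50 (edgeR adjusted p = 0.102). The deviations of same-numbered libraries correlated at -0.0029, -0.15 and 0.17 across genes, and those of differently numbered ones at -0.19 to 0.16. Deviations from a group mean are not independent of one another, so these values cannot decide whether the numbers pair the samples. Depth limits Inhba and Fstl3, with 8 to 46 counts per library.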
